A study of Drosophila melanogaster with 3 samples.

Results

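The segmentation and homeotic genes of Drosophila melanogaster examined here are 37 protein-coding genes, chosen by symbol, of 13968 protein-coding genes annotated on the main chromosomes. They comprise 2 maternal genes, 7 gap genes, 3 head gap genes, 9 pair-rule genes, 8 segment polarity genes and 8 homeotic (Hox) genes. The annotation lists 36 of them under the symbol used here and 1, h (hairy), as hry. Chromatin immunoprecipitation with sequencing (ChIP-seq) had been performed with an antibody against GFP on whole embryos, 0 to 24 h old and of both sexes. The embryos came from 1 transgenic line that stably expresses the protein CG9609 with GFP at its C terminus, and the sources used here do not name the promoter that drives the fusion. There were 3 biological replicates and 1 group, so no treated or mutant group exists to compare with, and no peak list of an untagged line was used here. Whole embryos mix all tissues and all stages, so binding in few cells and weak binding in many cells cannot be told apart.

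These genes divide the embryo along its head-to-tail axis. Maternal factors such as Bicoid switch on gap genes in broad domains, and gap proteins position the stripes of pair-rule genes. Pair-rule proteins set the segment polarity genes, which include those of the Wingless and Hedgehog signals and of their partners. Hox genes then give each segment its identity. The 8 examined here lie in the Antennapedia and bithorax complexes, where long introns and intergenic stretches hold many of their enhancers.

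A peak summit is the base of highest signal in a region. Each summit was placed at a promoter, meaning within 500 bp of a transcription start site (TSS) of the gene, in the gene body as exon or intron, or in the flank, meaning within 10 kb outside the gene. The authors' reproducible set holds 3747 regions, and regions are ranked by the authors' signal, with rank 1 the strongest. For each replicate the strongest 3747 regions of its list were used in the same way. Around the 37 genes lay 33 distinct reproducible summits, and 7 of them carry the observations below, shown as the 101 bases centred on the summit. The first 5 belong to the strongest regions near these genes, and the last 2, at Abd-B and Antp, share a sequence word. Capitals mark the words discussed later, on either strand, and all sequences are of the plus strand of dm6.
abd-A, 3′ flank, rank 190, 3R:16798837-16798937: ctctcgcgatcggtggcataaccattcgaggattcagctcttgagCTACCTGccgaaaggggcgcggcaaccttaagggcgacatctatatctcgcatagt
slp1 and slp2, between the genes, rank 192, 2L:3832485-3832585: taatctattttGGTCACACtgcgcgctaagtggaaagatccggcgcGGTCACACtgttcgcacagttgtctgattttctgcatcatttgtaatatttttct
nkd, intron, rank 641, 3L:19024982-19025082: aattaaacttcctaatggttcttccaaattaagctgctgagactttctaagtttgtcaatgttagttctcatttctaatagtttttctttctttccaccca
bcd, promoter, rank 745, 3R:6759616-6759716: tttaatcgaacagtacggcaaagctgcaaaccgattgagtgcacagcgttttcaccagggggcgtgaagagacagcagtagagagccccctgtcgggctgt
oc, 5′ flank, rank 905, X:8656677-8656777: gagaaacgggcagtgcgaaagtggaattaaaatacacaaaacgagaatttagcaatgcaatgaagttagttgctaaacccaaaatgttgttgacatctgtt
Abd-B, 3′ flank, rank 1533, 3R:16919203-16919303: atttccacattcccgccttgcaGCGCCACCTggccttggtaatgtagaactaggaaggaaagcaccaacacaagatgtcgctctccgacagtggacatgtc
Antp, intron, rank 2592, 3R:6912367-6912467: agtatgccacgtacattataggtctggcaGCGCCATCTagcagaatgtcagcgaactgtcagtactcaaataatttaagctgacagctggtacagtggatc

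Few of these genes carried a summit at their own promoter. Of the 37, 3 (8.11%) did: bcd, nkd and Antp. Among all protein-coding genes the share was 18.8%. In the replicates 2, 1 and 3 of the 37 genes had one, which is 5.41% ± 2.7 (SD, n = 3), where all genes gave 16.8%, 18.7% and 18.5%. The promoter of bcd was the one found in the strongest regions of all 3 replicates. Required to repeat in all replicates but 1, the count was 1 without replicate 1 (bcd), 2 without replicate 2 (bcd and Antp) and 1 without replicate 3 (bcd), against 14%, 13% and 13.3% of all genes.

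**Figure D1:**
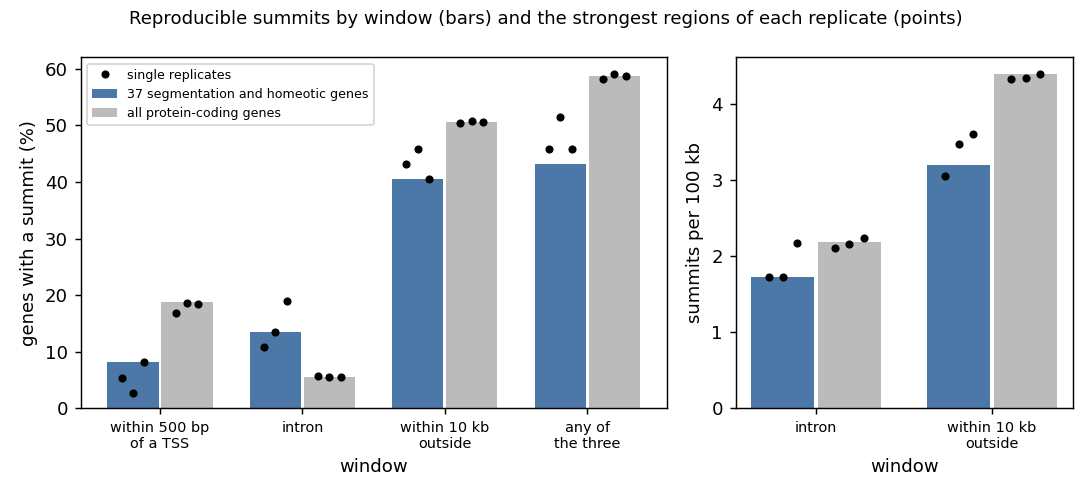
Share of genes (percent) with a CG9609-GFP summit at the promoter, in an intron, in the flank or in any of these windows, for the 37 segmentation and homeotic genes and all 13968 protein-coding genes. Bars give the reproducible set, points the 3 replicates, and the right panel summits per 100 kb of intron or flank. The members' promoter bar (8.11%) stands under that of all genes (18.8%), and their intron bar (13.5%) above it (5.52%).

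Introns held a summit in 5 of the 37 genes (13.5%), namely cad, ptc, nkd, Antp and Abd-B, against 5.52% of all genes. The replicates gave 4, 5 and 7 genes, or 14.4% ± 4.13 (SD, n = 3), beside 5.72%, 5.61% and 5.56% of all genes. These genes are long. Their median intron length was 3177 bp, and that of all genes was 131 bp. Per 100 kb of intron they held 1.73 summits (replicates 1.88 ± 0.25, SD, n = 3), beside 2.19 for all genes (2.17 ± 0.0684). The members' replicates were 1.73, 1.73 and 2.17, so the highest was close to all genes. Among regions required to repeat, the density was 1.08 without replicate 1, 0.65 without replicate 2 and 1.08 without replicate 3, beside 1.54, 1.31 and 1.31 for all genes. Among genes with at least 10 kb of intron, a comparison chosen after seeing the data, 4 of 14 members (28.6%) had an intron summit, beside 33.7% of 1320 genes. In the reproducible set both values that take length into account were thus lower for the members, while the plain share of genes was higher. Both rest on small counts, 8 summits and 4 of 14 genes, and lie near those of all genes.

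In the flanks, 15 genes (40.5%) had a summit, against 50.6% of all genes. The replicates gave 16, 17 and 15 genes, beside 50.4%, 50.8% and 50.6% of all genes. Here a summit counts once for each gene in whose flank it lies, so those in gene-dense regions count several times. Counted so, 8459 of 11945 flank summits over all genes (70.8%) lay within 500 bp of another coding TSS. Around the segmentation and homeotic genes 9 of 23 (39.1%) did, with the summits shared by slp1 and slp2 counted for each gene. These are not shares of distinct summits, of which 46.1% of all 3747 lay over 500 bp from every coding TSS. Away from other coding TSSs, 9 of 37 genes (24.3%) had a flank summit, against 18.8% of all genes. There the members' flanks held 14 summits, those shared by slp1 and slp2 again counted for each gene. That is 2.09 per 100 kb (replicates 2.29 ± 0.228, SD, n = 3), beside 1.64 in all genes (1.77 ± 0.192). These values are in a different order from the flank as a whole, where the members held 3.19 per 100 kb and all genes 4.39. The order also turned with the width of the flank: within 20 kb, 29 members (78.4%) had a flank summit, beside 70.1% of all genes, although the density was still lower, at 3.63 beside 4.19 per 100 kb.

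Counting any of the 3 windows, 16 of 37 genes (43.2%) had a summit, beside 58.8% of all genes. The replicates gave 17, 19 and 17, beside 58.2%, 59.1% and 58.8%. The same 15 genes had one in all 3 replicates: bcd, cad, btd, oc, eve, odd, slp1, slp2, ptc, nkd, lab, Antp, Ubx, abd-A and Abd-B. In 5 others, knrl, ems, wg, hh and Scr, a summit was among the strongest regions of 1 or more replicates but not in the reproducible set. For 16 genes none of these lists had a summit in the 3 windows, from which exons are left out.

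The 33 summits ranked from 190 to 3561, with a median of 2168 where the middle of the list is 1874, and 11 were among the strongest 1873. Of them, 21 (63.6%) lay over 500 bp from every coding TSS, a position held by 46.1% of all 3747. A summit within 100 bp among the strongest regions of all 3 replicates was found for 15 of the 33 (45.5%), beside 55.4% of all reproducible regions.

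**Figure D2:**
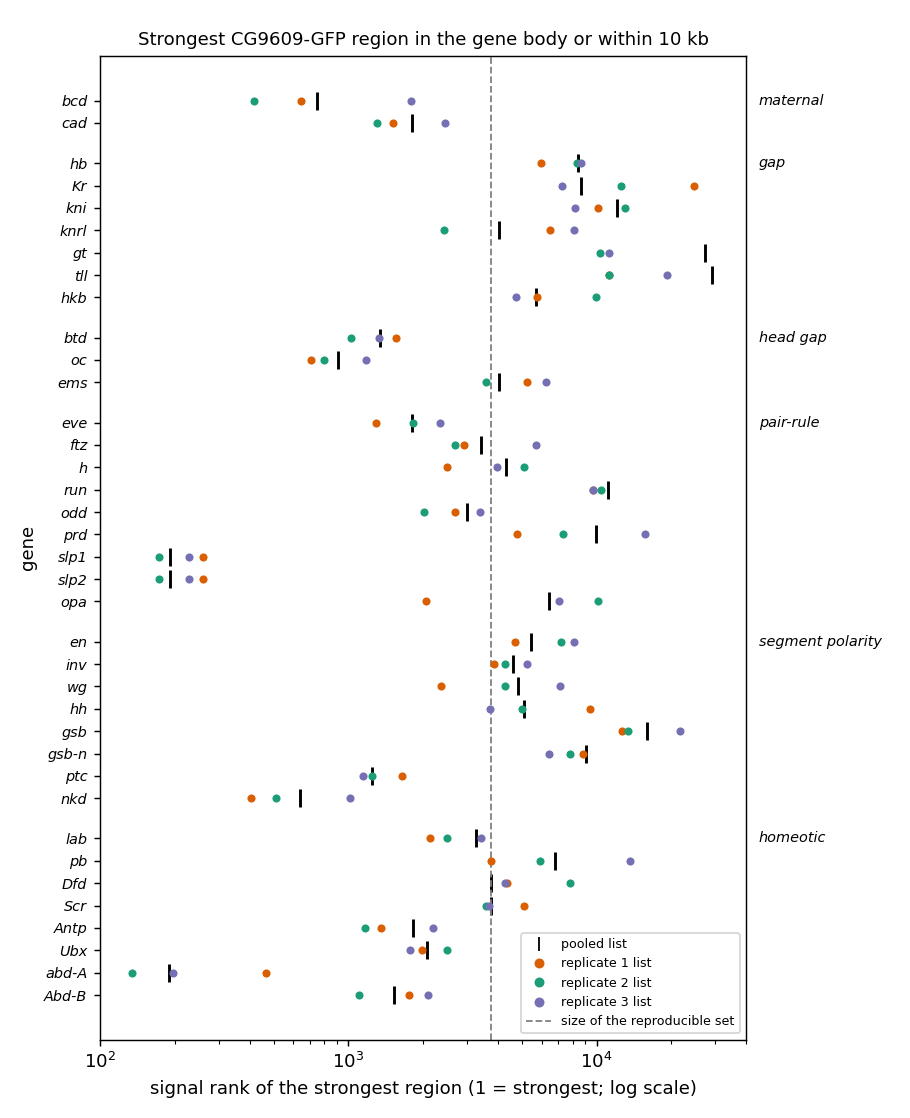
Signal rank of the strongest region in the gene body or within 10 kb for each of the 37 genes, grouped by role, on a log axis where 1 is the strongest. Bars show the pooled list, points the 3 replicate lists, and the dashed line the 3747 regions of the reproducible set. The 7 gap genes lie to the right of the line in the pooled list, while abd-A, slp1 and slp2 lie near rank 190.

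The counts by role below stand beside 58.8% of all genes with a summit in any window and 50.6% with one in the flank. Both maternal genes were bound. Bicoid, encoded by bcd, is the homeodomain morphogen of the anterior. Its promoter summit lay 200 bp upstream of the TSS, with a signal of 241 (rank 745) and ranks of 642, 418 and 1788 in replicates 1, 2 and 3. Its sequence, shown above, held none of the listed words. A second region, rank 2496, lay 3427 bp upstream of bcd, at the TSS of the neighbouring gene Ama. Caudal, encoded by cad, is a homeodomain protein of the posterior. An intron summit in cad, rank 1941, ranked 1519, 1859 and 2632 in the replicates, and a flank summit, rank 1803, lay 156 bp upstream of Pomp.

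None of the 7 gap genes had a reproducible summit in any window, where 58.8% of all genes had one. These genes encode the transcription factors that read the maternal gradients: hb, Kr, kni, knrl and gt in the trunk, and tll and hkb at the ends. In the whole pooled list their strongest regions ranked 4028 (knrl), 5690 (hkb), 8427 (hb), 8682 (Kr), 12030 (kni), 27319 (gt) and 29048 (tll) of 29054. In replicate 2, an intron region of knrl reached rank 2431. The replicates differed widely for the weaker genes: Kr ranked 24712, 12555 and 7216, and gt had no region in replicate 1 and ranks of 10320 and 11212 in the others.

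Of the head gap genes, btd and oc had flank summits and ems had none. Orthodenticle, the homeodomain protein of oc, patterns the head. The stronger oc summit, rank 905, lay 6046 bp upstream of the gene, with signals of 67.5, 74.4 and 80.2 and ranks of 704, 797 and 1181 in the replicates. A second, rank 2459, lay 2773 bp beyond its 3′ end. The 2 flank summits of btd, which encodes an Sp-type zinc finger protein, ranked 1341 and 1885, and lay 654 and 422 bp upstream of nej, the gene of the CBP acetyltransferase. A region of ems, a homeobox gene, reached rank 3567 in replicate 2.

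Of 9 pair-rule genes, 5 had a flank summit, near the 50.6% of all genes. None had one at a promoter, beside 18.8% of all genes. None had one in an intron either, but their introns total only 18761 bp. The paired forkhead genes slp1 and slp2, which keep parasegment boundaries, share the summit ranked 192. It lay 4305 bp upstream of the slp2 TSS and 5436 bp beyond the 3′ end of slp1. Its signal was 440 in the pooled list and 110, 148 and 177 in replicates 1, 2 and 3, with ranks of 259, 172 and 228, so it was strong in each. A weaker region, rank 3114, lay 768 bp beyond slp1. The others were lower in the list. The zinc finger gene odd had a summit 8080 bp downstream of its TSS at rank 2999, and the homeobox gene ftz one 5226 bp downstream at rank 3409. The summit near eve, rank 1807, lay 67 bp upstream of TER94, a gene for an ATPase of protein quality control. The genes h, run, prd and opa had none in the reproducible set. Replicate 1 alone placed 1 exon region of h (rank 2504) and 2 of opa (ranks 2063 and 2467) among its strongest.

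Of 8 segment polarity genes, ptc and nkd were bound and en, inv, wg, hh, gsb and gsb-n were not, where 58.8% of all genes were. Naked cuticle, encoded by nkd, is an inhibitor of Wingless signalling. The intron summit of nkd, rank 641, lay 20417 bp downstream of its TSS and ranked 407, 512 and 1016 in the replicates. Its promoter summit, 101 bp upstream, had rank 2458 but varied: 12104, 4041 and 1911 in replicates 1, 2 and 3. Only replicate 3 thus placed it among the strongest 3747. A flank summit of nkd, rank 1918, lay 437 bp upstream of CG18135.

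Patched, encoded by ptc, is the Hedgehog receptor. Its strongest summit, rank 1249, lay 5269 bp upstream of the gene and ranked 1649, 1241 and 1142 in the replicates. On the 3′ side 3 more ranked 2168, 2965 and 3276, each nearest to a TSS of Acsl. The first lay 977 bp and the second 160 bp downstream of an Acsl TSS. The third lay between Acsl TSSs, 1492 bp upstream of the nearer. The replicates were far apart for the last, at ranks of 25321, 2632 and 3025. The ptc intron summit, rank 3561, was in the strongest 3747 of no replicate, with ranks of 4415, 4981 and 4607. The engrailed gene en, which marks posterior compartments, had its strongest pooled region at its promoter, at rank 5424, while the strongest region in the body or flanks of its neighbour inv had rank 4615 and the strongest at the inv promoter rank 26808. The signal genes wg and hh reached ranks of 4839 and 5107 in the pooled list, and ranks of 2360 in replicate 1 and 3703 in replicate 3, respectively.

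**Figure D3:**
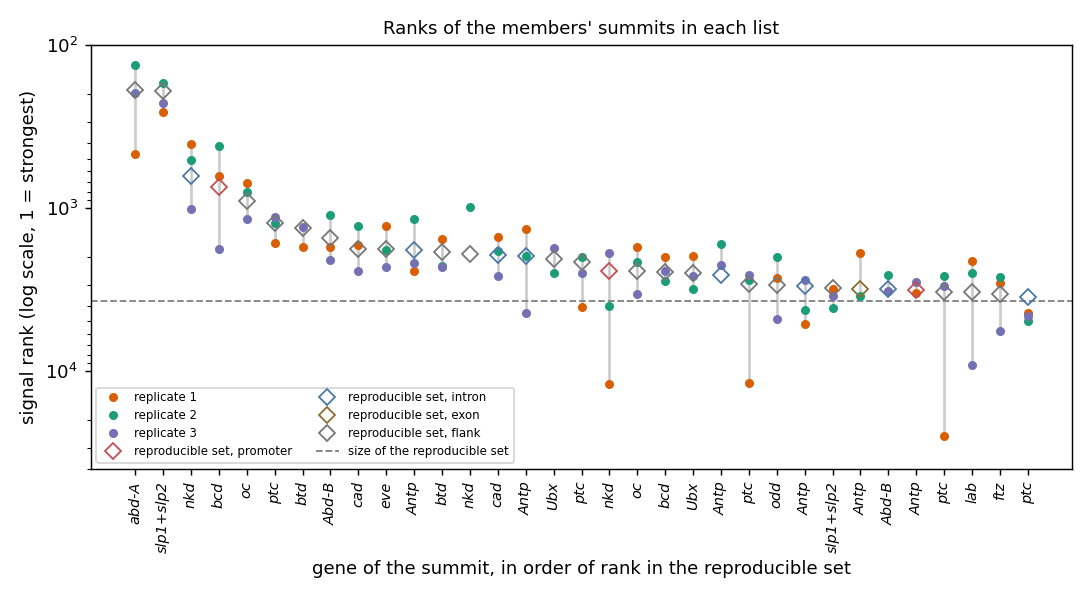
Rank of each of the 33 reproducible summits near the segmentation and homeotic genes in the reproducible set and in the 3 replicate lists, on a log axis. The abd-A and slp1 and slp2 regions, ranks 190 and 192, lie at the strong end in every replicate, and the nkd promoter region, rank 2458, ranges from 1911 to 12104.

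Among the 8 homeotic genes, 5 had a summit in a window, near the 58.8% of all genes, and pb, Dfd and Scr had none. The strongest region of all 37 genes was in the flank of abd-A, which specifies abdominal segments. It had a signal of 443 (rank 190), 163 and 185 in replicates 2 and 3 (ranks 134 and 197) and 83.0 in replicate 1 (rank 467). The region lay 8327 bp beyond the 3′ end of abd-A, and the nearest coding TSS, that of Glut3, was 10576 bp away. For Abd-B, the gene of the posterior abdomen, a flank summit at rank 1533 lay 7959 bp beyond the gene and ranked 1752, 1107 and 2093, and an intron summit had rank 3181. Both flank summits of Ubx, the gene of the third thoracic segment, were at other genes: rank 2077 at CG10324 and CCT3, and rank 2537 at modSP, 174 bp upstream. No reproducible summit was inside Ubx, although replicate 3 placed an intron region at rank 3027.

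Antennapedia, the thoracic Hox gene Antp, held 6 summits, more than any other of the 37 genes. It is also the longest of them, at 102976 bp with 93967 bp of intron. All 6 summits also lay inside the annotated gene CG46458. They comprised 4 in introns, ranks 1813, 1986, 2592 and 3028, 1 in an exon, rank 3161, and 1 at a promoter, rank 3194. The intron summit at 1813 ranked 2461, 1171 and 2197 in the replicates. The promoter summit lay 236 bp upstream of an internal TSS, with ranks of 3322 and 2871 in replicates 1 and 3 and none in replicate 2, where no region within 500 bp of an Antp TSS ranked above 8071. The lab summit, rank 3277, was at CG1307 and twr. Dfd and Scr, which pattern the jaw and labial segments, missed the reproducible set by little: their strongest pooled regions ranked 3769, at the Dfd promoter, and 3752, in the flank of Scr. The Dfd promoter region ranked 5280, 7841 and 4268 in the replicates, so none of them placed it in its strongest 3747.

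The Antennapedia complex was taken as the span from lab to Antp (3R, 6661427 to 6999228) and the bithorax complex as that from Ubx to Abd-B (3R, 16656623 to 16972236). The first, of 337802 bp, held 10 reproducible summits, or 2.96 per 100 kb, and 11, 10 and 10 in the replicates. The second, of 315614 bp, held 5, or 1.58 per 100 kb, and 3, 6 and 6 in the replicates. The genome held 2.73 per 100 kb. In the Antennapedia complex 3 of the summits were at a coding TSS, and in the bithorax complex 0 were. The longest stretch without a reproducible summit in the first ran for 106657 bp and covers Dfd, Scr and ftz. In the second it ran for 92131 bp from the 3′ end of Ubx through the whole gene. Regions within 100 bp of a summit that bounds a stretch are set aside here. Replicates 2 and 3 each had a region in the first stretch, in the flank of Scr, at ranks 3569 and 3667. Replicate 2 had another near its edge, in the flank of bcd, at rank 2436. Replicate 3 had one in the second, in Ubx, at rank 3027. In the whole pooled list, which includes background regions, the complexes held 86 and 62 regions, or 25.5 and 19.6 per 100 kb, where the genome held 21.2.

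**Figure D4:**
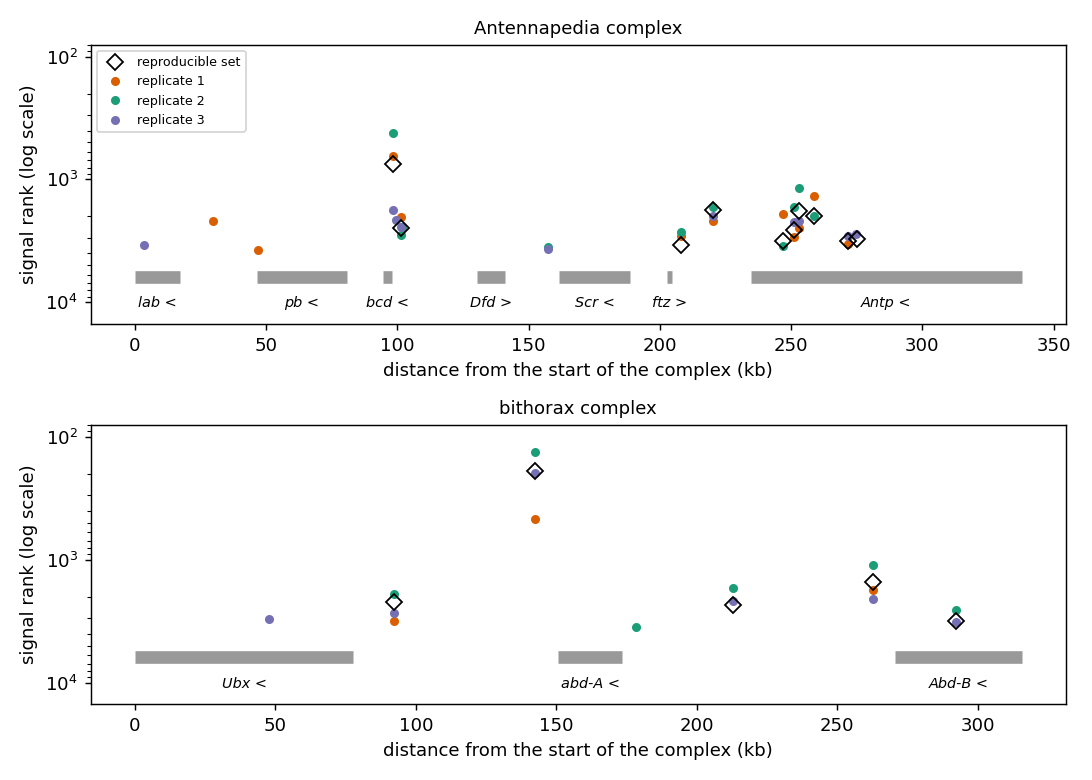
Reproducible CG9609-GFP summits along the Antennapedia and bithorax complexes, with position in kb from the start of the span and signal rank on a log axis, above the gene bodies (grey, with strand). Diamonds show the reproducible set and points the strongest regions of each replicate. The Antennapedia complex holds 10 summits, of which 6 are in Antp, and the bithorax complex 5, with the region of rank 190 beside abd-A and none in Ubx.

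The lists with background regions were also read at the promoters, as a lower threshold. In the whole pooled list of 29054 regions, 23 of 37 genes (62.2%) had a region within 500 bp of a TSS, beside 51.5% of all genes. The median rank of the strongest was 12380 for these genes and 5946.5 for all genes with one. In the whole replicate lists 17, 18 and 19 of 37 genes had one (45.9%, 48.6% and 51.4%), beside 44.5%, 49.6% and 53.7% of all genes. The members' share was thus above that of all genes in the pooled list and near it in each replicate. For 7 genes, Kr, gt, eve, ftz, slp2, gsb-n and Ubx, none of the 4 whole lists had a region at a TSS.

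Promoters of these genes also differed from others in base composition. Over 250 bases before and 50 after the outermost TSS, GC content was 52.9% on average in the 37 genes and 39.1% in all genes, and 36 of the 37 lay above that mean. The exception was nkd, at 36.9%, whose promoter was bound. Among all genes, promoters with a summit had a mean GC content of 38.3% and those without one 39.2%. When genes were split at a GC content of 50%, a value chosen after these data were seen, a summit was found at 0 of 28 members at or above it, beside 10.5% of 1446 genes. Below it 3 of 9 members (33.3%) had one, beside 19.7% of all genes. The bcd and Antp promoters had 42.5% and 49.8%. The Antp value lay just under the cut and was measured at its outermost TSS, not at the internal one next to the summit. The members' counts on either side thus depend on where the cut was placed. The part of base composition in the low promoter count was not tested.

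Known promoter and enhancer words were then searched on both strands, in the 101-bp summit windows and in the same promoters. At the promoters, the DNA replication-related element (DRE), TATCGATA, was in 0 of 37 members and 9.36% of all genes, and the Motif 1 core, GGTCACAC, in 0 and 7.7%. Both are words of broadly expressed genes' promoters. The GAGA and Zelda words had the opposite order. The GAGA word, GAGAGAG, was in 11 members (29.7%), beside 5.86% of all promoters: hb, kni, tll, btd, en, gsb, ptc, Dfd, Scr, Ubx and abd-A. The word of Zelda, an activator of the early embryonic genome, CAGGTAG, was in 5 (13.5%), beside 1.64%: gt, ftz, h, odd and slp1. A reproducible summit was at 0 of these 16 promoters, beside 17.8% of the 1025 promoters of all genes with either word, a background added after seeing the data, and 3 of all 37 members. The TATA word, TATAAA, was in 18.9% of members and 45.9% of all promoters. The word of Bicoid, itself a patterning factor, TAATCC, was in 2.7% and 8.76%, and the E-box CACGTG in 2.7% and 4.23%. The part of the members' higher GC content in these shares was not tested.

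**Figure D5:**
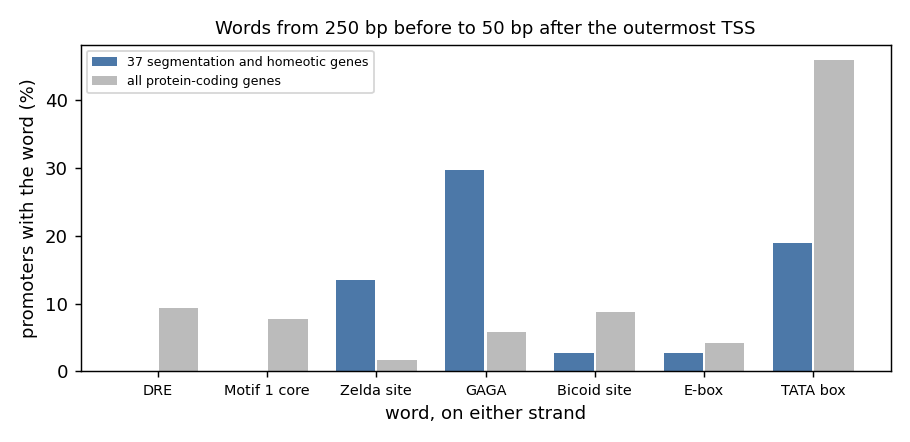
Share of promoters (percent, 250 bases before to 50 after the outermost TSS) that hold each word, for the 37 segmentation and homeotic genes and all 13968 genes. GAGA (29.7% against 5.86%) and Zelda (13.5% against 1.64%) words are higher in the members, and DRE and Motif 1 words, at 0, are lower.

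In the summit windows TATAAA was the most frequent of the listed words, in 5 of 33 member windows (15.2%) and 15.1% of the others, and each of the other listed words was in at most 2 member windows. TAATCC was in 1 member window, at ptc (3.03% beside 3.04%), and CACGTG in 0 (beside 1.08%). The region between slp1 and slp2 held 2 copies of the Motif 1 core on the same strand, 35 bp apart, the nearer centred on the summit. The other copy of that word was at lab, in the window at CG1307, so 2 of 33 member windows (6.06%) held it, beside 1.59% of 3714 other reproducible regions. Away from coding TSSs the word was in 2 of 1706 other regions (0.117%), and at them in 2.84% of 2008. The Zelda word was in 1 member window, that of abd-A, 2 bp from the summit, beside 0.431% of the others. DRE was in 1, the Ubx flank region at modSP, or 3.03%, beside 2.99%. The GAGA word was in 0 of 33 member windows, beside 1.35%.

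Abd-B at rank 1533 and Antp at rank 2592 shared the word AGNTGGCGC, a core of the known site of the insulator protein CTCF, 24 and 17 bp from the summit. This word was chosen after the sequences were seen, so the members' count of it cannot be weighed against that of other regions. It was in 2 of 33 member windows (6.06%). Among the other regions it was in 2.15% of windows, in 2.93% of those away from coding TSSs, and in 0.444% of windows 300 bp to either side. The windows of nkd, bcd and oc shown above held none of the words. The 3 words of 8 bases with the largest excess at the other summits, ATCGATAG, CAACACTG and TATCGATA, were in 1 of 33 member windows (3.03%) together, beside 6.73% of the others.

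Of 45 further genes of the same patterning system, 11 (24.4%) had a promoter summit, beside 18.8% of all genes, and 11, 13 and 12 in the replicates. They include gro, the corepressor Groucho, at rank 98, sgg, the kinase of the Wingless pathway, at rank 126, bowl, a relative of odd, at rank 462, nos, the maternal posterior determinant, at rank 713, and the forkhead gene fkh at rank 985. The others were Axn (1905), exu (2145), disp (2238), cnc (2428), arr (2862) and stau (3169). The summits of cnc, arr and stau were not among the strongest 3747 of every replicate. In replicates 1, 2 and 3 cnc ranked 15239, 2418 and 2008, and stau 2727, 3498 and 4277. The arr summit ranked 8298 and 2117 in replicates 1 and 3 and had no region in replicate 2. In 5 of the 11, nos, Axn, exu, disp and stau, the summit was also within 500 bp of another coding TSS. By group, 4 of 11 maternal and terminal genes, 3 of 12 other transcription factors, 4 of 19 Wingless and Hedgehog pathway genes and 0 of 3 Hox cofactors had one.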

How the data were processed

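ChIP-seq peak lists in dm6 were used: the authors' reproducible set, their list on pooled replicates and 1 list for each of 3 biological replicates, with background regions in the latter 4. The signal of each region is the authors' own, deposited in the narrowPeak layout per the labels' records. The sources used here name neither its scale nor the peak caller, aligner or thresholds, and read depth is unknown. The lists come from the reads and 1 further shared file, per the labels' records. The 3747 reproducible regions were the 3747 strongest of the pooled list, so the same number was taken from each replicate, and their spread is given as SD.

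Genes and TSSs came from Ensembl release 115 (version 6.54) and sequence from RefSeq, of the same assembly. For each gene, a summit was counted at the first of promoter, gene body and flank, so a summit near several genes was counted for each. Counts stand beside those of all genes, with no test, since members and word and gene lists were chosen with earlier results of these data known. All 37 genes are named, and other patterning genes only with a promoter summit. Counting was checked on simulated data. Python 3.11.15, numpy 2.4.6 and matplotlib 3.10.9 were used. Alternatives were other windows, TSSs, flanks, list sizes and replicate sets.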

Additional observations from a re-analysis of the deposited data

How the results depend on the processing

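Over the alternatives, 28 values stayed within the spread or 1.5 times of those reported and 27 moved. Some of the 28 could not move. The strongest regions of the pooled list are the reproducible set itself, and 0 intron summits of the members lay at another coding TSS. The order of members and all genes turned under 2 of the alternatives, the flank of 20 kb and the flank without other TSSs. With a flank of 5 kb, 9 genes (24.3%) had a flank summit, at 2.84 summits per 100 kb, beside 32.4% and 4.58 for all genes. With 20 kb, 29 genes (78.4%) had one and 29 (78.4%) a summit in any window, above the 70.1% and 74.2% of all genes, and the density was 3.63 beside 4.19. Leaving out flank summits at another coding TSS gave 9 genes (24.3%) and 2.09 per 100 kb, above the 18.8% and 1.64 of all genes. Among the strongest 1873 regions, 1 gene had a promoter summit (all genes 10.7%), 2 an intron summit (all genes 3.21%) and 9 a flank summit (all genes 32.9%). The densities were 0.434 per 100 kb of intron and 1.25 of flank, beside 1.04 and 2.31 for all genes. In the 2023 regions found in all 3 replicates, 1 gene had a promoter summit (all genes 11.6%) and 3 an intron summit (all genes 3.48%). The densities were 0.65 per 100 kb of intron and 1.66 of flank, beside 1.12 and 2.44 for all genes. Leaving out each replicate in turn gave 1 to 2 promoter genes, 3 to 4 intron genes, 0.65 to 1.08 intron summits and 2.22 to 2.36 flank summits per 100 kb. All genes gave 13% to 14%, 3.92% to 4.3%, 1.31 to 1.54 and 2.81 to 3.14. These sets hold fewer regions (2650, 2332 and 2371). Within 50 bp in place of 100, 9 of 33 summits (27.3%) were found in all 3 replicates, beside 42.6% of all 3747. No paired analysis was possible because the samples form 1 group. With no read depth, ranks near the end of the set cannot be given an error beyond the spread of the replicates.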
